A study of Mus musculus with 32 samples.

Results

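A set of 77 genes, named here follicle-cell transcripts carried in pools of immature mouse oocytes, was chosen from 21557 protein-coding entries of the count table. The name is a label for a pattern of levels, and which cells made these RNAs was not tested. The choice was made on measured levels in counts-per-million (CPM, the reads of a gene as a share of all reads of its library). A member had a mean of at least 10 CPM in 4 GV libraries of batch 2, called the high libraries here, and at most 1/10 of that mean both in the mean of 3 other GV libraries of batch 2, called the low libraries, and in the mean of all MII libraries. The high libraries were D2 replicate 1, B6 replicate 2 and F1 replicates 2 and 3, and the low libraries were B6 replicate 1, D2 replicate 2 and F1 replicate 1. The rule left out 15 classical granulosa genes, 10 of which met its thresholds, so the members are the less familiar company of those genes. Levels in GV libraries of batch 2 and differences between GV and MII are therefore a description with no test. The 9 GV libraries of batch 1 had no part in the choice, and the MII libraries entered it only as 1 mean over all strains.

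The germinal vesicle (GV) oocyte is the immature oocyte held in the first meiotic prophase, and the metaphase II (MII) oocyte is the egg ready for fertilization. Both were taken from females of the inbred strains B6 and D2 and of their B6xD2 F1 hybrid, aged 8 to 12 weeks, and no other allele or treatment was named. A library stands for the pooled oocytes of a single mother, 9 to 20 cells, so replicates are different animals. GV oocytes were handled in medium with IBMX, a phosphodiesterase inhibitor that holds meiotic arrest, the zona pellucida was stripped with acidified Tyrode's buffer at both stages, and RNA was amplified by SPIA (single primer isothermal amplification) before sequencing. The batches were run on 2 models of HiSeq sequencer. Batch 1 held 3 GV and 3 MII libraries of each strain. Batch 2 held 2 B6, 2 D2 and 3 F1 GV libraries, with 3 B6, 2 D2 and 2 F1 MII libraries. The 32 libraries held 18.7 to 39.7 M counted reads, with a median of 28.1 M.

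An oocyte grows inside a follicle of granulosa cells, the innermost of which, the cumulus cells, reach through the zona with thin projections that end on the oocyte in gap junctions. Outside the granulosa lies the theca, which makes androgen, and after ovulation the granulosa and theca turn into the progesterone-making corpus luteum. Granulosa cells are known for steroid synthesis, inhibin and activin, and the secretion of a hyaluronan and versican matrix around the ovulated egg.

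The members were compared with the 15 granulosa genes that the rule left out. Summed over those 15 genes, the level ran from 584 to 2469 CPM in the 9 GV libraries of batch 1, from 330.0 to 3977 CPM in the high libraries, from 60.3 to 80.5 CPM in the low libraries and from 15.6 to 49.8 CPM in MII. Gja1 (gap junction), Inha (inhibin) and Lhcgr (luteinizing hormone receptor) had means of 113, 110 and 87.6 CPM in GV batch 1. In MII these 3 genes were at 0.946, 0.201 and 0.262 CPM. Others differed less, among them Kitl (10.2 CPM in GV batch 1, 5.76 in MII) and Fshr (11.0 and 2.18 CPM). In sum the 15 genes were high in the same libraries as the members, and 10 of them met the rule's thresholds. The rule itself made the members high in the high libraries and low in the low and MII libraries. That match is therefore a description, and no origin of the members is read from it. Only GV batch 1 lay outside the choice. Markers of other cell types were measured too. Counts of markers whose 9 GV libraries all lay above the 9 MII libraries of batch 1 stand beside 8.64% of the 19622 protein-coding genes with a read there. The 15 genes of theca and smooth muscle summed to 224 to 525 CPM in GV batch 1 and 132 to 286 CPM in MII, with 7 free of overlap. Myh11, a smooth muscle myosin, and the member Aldh1a1 led that list, at 129 and 109.9 CPM in GV batch 1 and 192 and 0.130 CPM in MII. The theca gene Cyp17a1 averaged 8.75 CPM in GV batch 1, 3.96 in the high libraries, 0.0357 in the low libraries and 0.00207 in MII. The other defining gene of theca, Insl3, averaged 0.0583 CPM in GV batch 1. The 12 fibroblast and stroma genes summed to 25.8 to 98.4 CPM in GV batch 1 and 1.21 to 5.21 CPM in MII, with 7 free of overlap. The highest of them, Col3a1, averaged 10.3 CPM in GV batch 1, 4.37 in the high libraries, 0.0893 in the low libraries and 0.00557 in MII. Mfap4 of the same list differed less, at 3.68, 2.10, 1.70 and 1.46 CPM in that order. The 14 endothelial genes summed to 70.2 to 111 CPM in GV batch 1 and 57.3 to 107 CPM in MII, with 5 free of overlap. The 14 leukocyte genes summed to 14.1 to 58.6 and 4.81 to 28.4 CPM with none free of overlap. The highest of them, C1qb, averaged 9.21 CPM in GV batch 1 and 7.36 CPM in MII, and Ptprc 0.886 and 0.0749 CPM. The 10 genes of surface epithelium summed to 67.8 to 207 and 51.6 to 115 CPM with 5 free of overlap. The highest of these, Muc16, averaged 33.8 CPM in GV batch 1 and 8.49 CPM in MII, and Krt19 1.80 and 0.00429 CPM. The 9 genes of oviduct epithelium summed to 6.92 to 37.4 and 1.85 to 17.5 CPM with none free of overlap. Their highest, Cldn4, averaged 12.0 CPM in GV batch 1 and 6.60 CPM in MII, and Ovgp1 0.385 and 0.569 CPM. The 7 erythroid genes measured summed to 672 CPM in D2 GV batch 1 replicate 3 and to at most 38.9 CPM elsewhere, with 2 free of overlap. No member stood in the endothelial, leukocyte, erythroid, stroma, surface or oviduct lists, and 2 members, Aldh1a1 and Rgs5, stood in the list of theca and smooth muscle. A gene with the members' pattern could miss the rule by its level alone, as Col3a1 did. Lists without members are therefore not read as absence of those cells. The part of stromal, thecal or blood cells, or of the oocytes themselves, in the members' levels was not tested. In such pools fewer follicle cells and less RNA per cell cannot be told apart.

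Promoter sequence is shown for Aldh1a1, the member with the highest level, and for Akr1c18, the member called between strains in GV libraries. Each run is the 250 bases before a transcript start in RefSeq (GRCm38.p6), read 5′ to 3′ on the gene's strand. For Aldh1a1, on the plus strand at chr19:20601718-20601967, capitals mark a CCAAT box and a GATA site (AGATAA). Another Aldh1a1 start in RefSeq has its window upstream, at chr19:20492333-20492582, which held an AP-1 and a TEAD site and neither of the motifs just named. Which start was used is not shown by gene counts. For Akr1c18, on the minus strand at chr13:4150647-4150896, none of the 8 motifs searched was found, so it has no capitals.
Aldh1a1: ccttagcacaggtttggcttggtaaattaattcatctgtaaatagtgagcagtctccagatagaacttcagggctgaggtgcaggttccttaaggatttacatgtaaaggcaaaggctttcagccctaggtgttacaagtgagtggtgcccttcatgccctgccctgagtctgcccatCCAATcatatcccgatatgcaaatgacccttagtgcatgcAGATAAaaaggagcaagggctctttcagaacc
Akr1c18: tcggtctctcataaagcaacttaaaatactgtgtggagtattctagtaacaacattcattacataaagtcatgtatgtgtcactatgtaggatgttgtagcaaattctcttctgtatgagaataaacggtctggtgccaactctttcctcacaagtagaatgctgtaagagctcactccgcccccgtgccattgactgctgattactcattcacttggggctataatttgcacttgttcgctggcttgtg

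RefSeq gave such windows for 59 of the 77 members, 73 windows in all. For 51 of them the bases just after the window were found near the start of a transcript of that gene in another annotation, GENCODE. Motifs were searched on both strands by their letters. TATAAA was in 9.59% of member windows against 11.6% of all 21071 windows, the nuclear receptor half-site AGGTCA in 11.0% against 12.8%, the GATA site AGATAA in 6.85% against 8.78%, and the CCAAT box in 39.7% against 35.4%. The cyclic AMP response element TGACGTCA was in 4.11% against 1.94%, that is in 3 member genes (Ldha, Ltbp1 and Zfp266), and the steroidogenic factor 1 site CAAGGTCA, which contains the half-site, was in 1.37% against 1.13%. The AP-1 site TGANTCA was in 8.22% against 6.16% and the TEAD site GGAATG in 13.7% against 11.7%. A match is a run of letters and not a site shown to be used.

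The members' levels were uneven between libraries. In GV batch 1 their summed level was 1168, 2141 and 906 CPM in B6 (replicates 2, 4 and 5), 2339, 1520 and 1409 CPM in D2 (replicates 3, 4 and 5) and 1484, 1043 and 3429 CPM in F1 (replicates 2, 3 and 5). F1 replicate 5 was the highest and B6 replicate 5 the lowest, and the 3 strains overlapped. In batch 2 the high libraries reached 3479 CPM in D2 replicate 1 and 3483 CPM in B6 replicate 2, but only 817 and 574 CPM in F1 replicates 2 and 3, below every GV library of batch 1 in both cases. The low libraries held 69.4, 89.5 and 88.9 CPM in B6, D2 and F1. The MII libraries held 27.2 to 193 CPM, so the low GV libraries fell within the MII range, and the highest were D2 batch 1 replicate 4 at 193, B6 batch 2 replicate 1 at 165 and D2 batch 2 replicate 1 at 152 CPM.

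**Figure D1:**
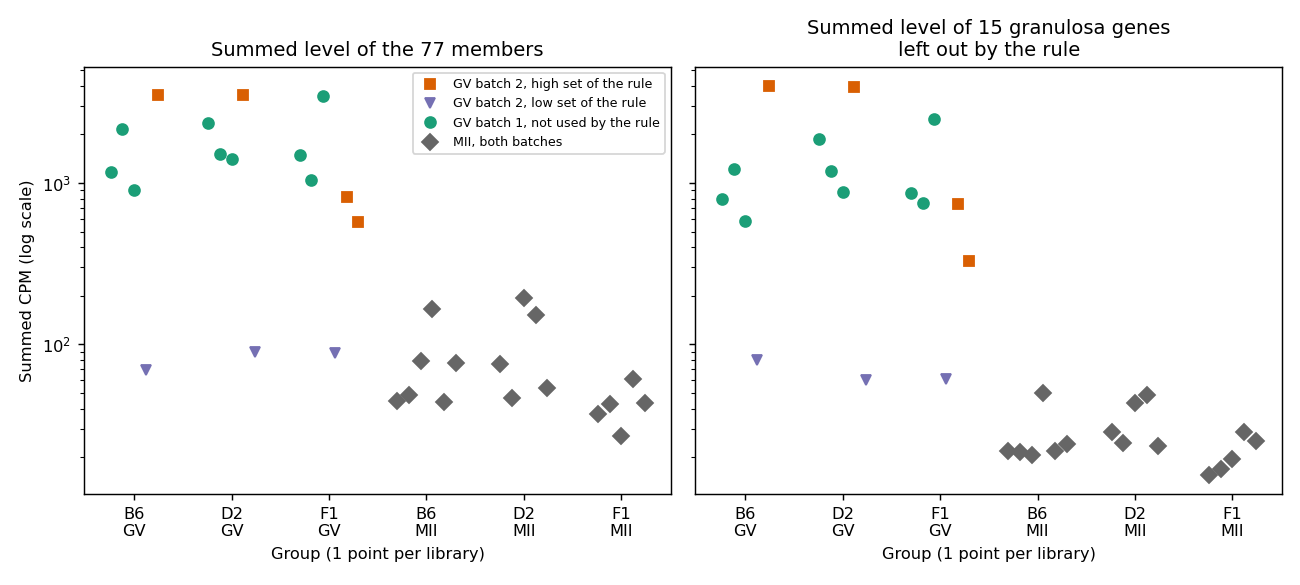
Summed CPM (log axis) of the 77 members (left) and of the 15 granulosa genes set aside by the rule (right), 1 point per library, by strain and stage. All 9 GV libraries of batch 1 lie between 906 and 3429 CPM for the members, and the 16 MII libraries between 27.2 and 193 CPM.

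All but 3 members were detected at 1 CPM or more in each of the 9 GV libraries of batch 1 (74 of 77), and 18 were at 10 CPM or more in each. The mean over batch 1 divided by the mean over the high libraries had a median of 0.797, and 65 members were within 2-fold. The ratio was highest for Tceal9, a small nuclear protein gene (28.7 against 11.1 CPM), Gm2a, a ganglioside activator of the lysosome (28.3 against 12.7), Aldh1a1 (109.9 against 52.5) and Akr1cl (39.0 against 24.4). Among the lowest were Hcls1, Plppr3 and Oxtr, which each owed most of their high mean to 1 library. Hcls1, a gene of blood cell lineages that binds actin, was at 48.0 CPM in F1 batch 2 replicate 2 and at 0.317 CPM or less in the other high libraries, and in GV batch 1 it reached 0.948 CPM. Plppr3, a membrane phosphatase-like gene, stood at 34.6 CPM in B6 batch 2 replicate 2 and at 0.201 to 4.67 CPM in GV batch 1. The oxytocin receptor gene Oxtr was at 56.9 CPM in that same B6 library and at 1.55 to 6.68 CPM in GV batch 1. Rgs5, a regulator of G-protein signalling known from pericytes, was at 36.8 CPM there and at 1.26 to 8.67 CPM in GV batch 1. For 38 members more than 50% of the summed level of the 4 high libraries came from 1 library. Of the 77, 46 were highest in D2 replicate 1, 30 in B6 replicate 2 and 1 in F1 replicate 2.

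**Figure D2:**
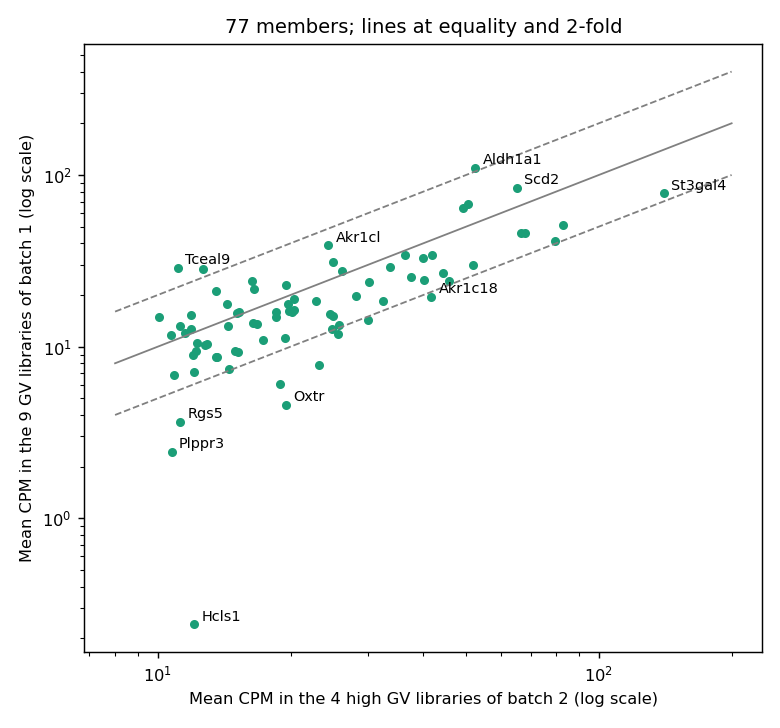
Mean CPM of each member in the 9 GV libraries of batch 1 (vertical, log) against its mean in the 4 high libraries that chose it (horizontal, log), with lines at equality and at 2-fold up and down. Most members, 65 of 77, lie between the 2-fold lines, and Hcls1, Plppr3, Rgs5 and Oxtr are among those below them.

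The edges of the rule were close to other genes. Abca1, Hspg2 and Plppr3 passed the level threshold with 10.1, 10.7 and 10.8 CPM, and Slc8a1, Ptgfr and Trim25 missed it with 9.73, 9.51 and 9.34 CPM. Cnmd, Creb3l2 and Aff2 had 9.92%, 9.49% and 9.28% of their high mean in the low GV libraries, whereas Purb, Nfia and Akr1c14 had 10.0%, 10.2% and 10.5%. In MII, Abca1, Gm2a and Appl2 had 9.66%, 9.62% and 9.42%, and Gm10220, Fosl2 and Cped1 had 10.2%, 10.7% and 10.7%.

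Levels in GV batch 1 were set beside those in MII batch 1. For 65 of the 77 members all 9 GV libraries lay above all 9 MII libraries. Among the 62 members with a mean of at least 10 CPM in GV batch 1 this held for 53, against 9.99% of the 8145 protein-coding genes with that level. Because the rule demanded low levels in MII, nothing is read from that count. The pooled GV level was a median of 31.1 times the pooled MII level, with 69 members at 10-fold or more. Slc26a7, an anion exchanger gene, and Rgs5 had 1 read each over the 9 MII libraries of batch 1 and entered the median at a floor of 3 counts. Among the other members the ratio ran from 2.26-fold for Hcls1 to 724-fold for Aldh1a1. The same ratio had a median of 1.03 over all the protein-coding genes at that level. The 12 members with overlap were St3gal4, Vcan, Elovl6, Akr1c18, Soga1, Mylk, Thbs1, Fbln1, Cnmd, Zbed6, Plppr3 and Hcls1.

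**Figure D3:**
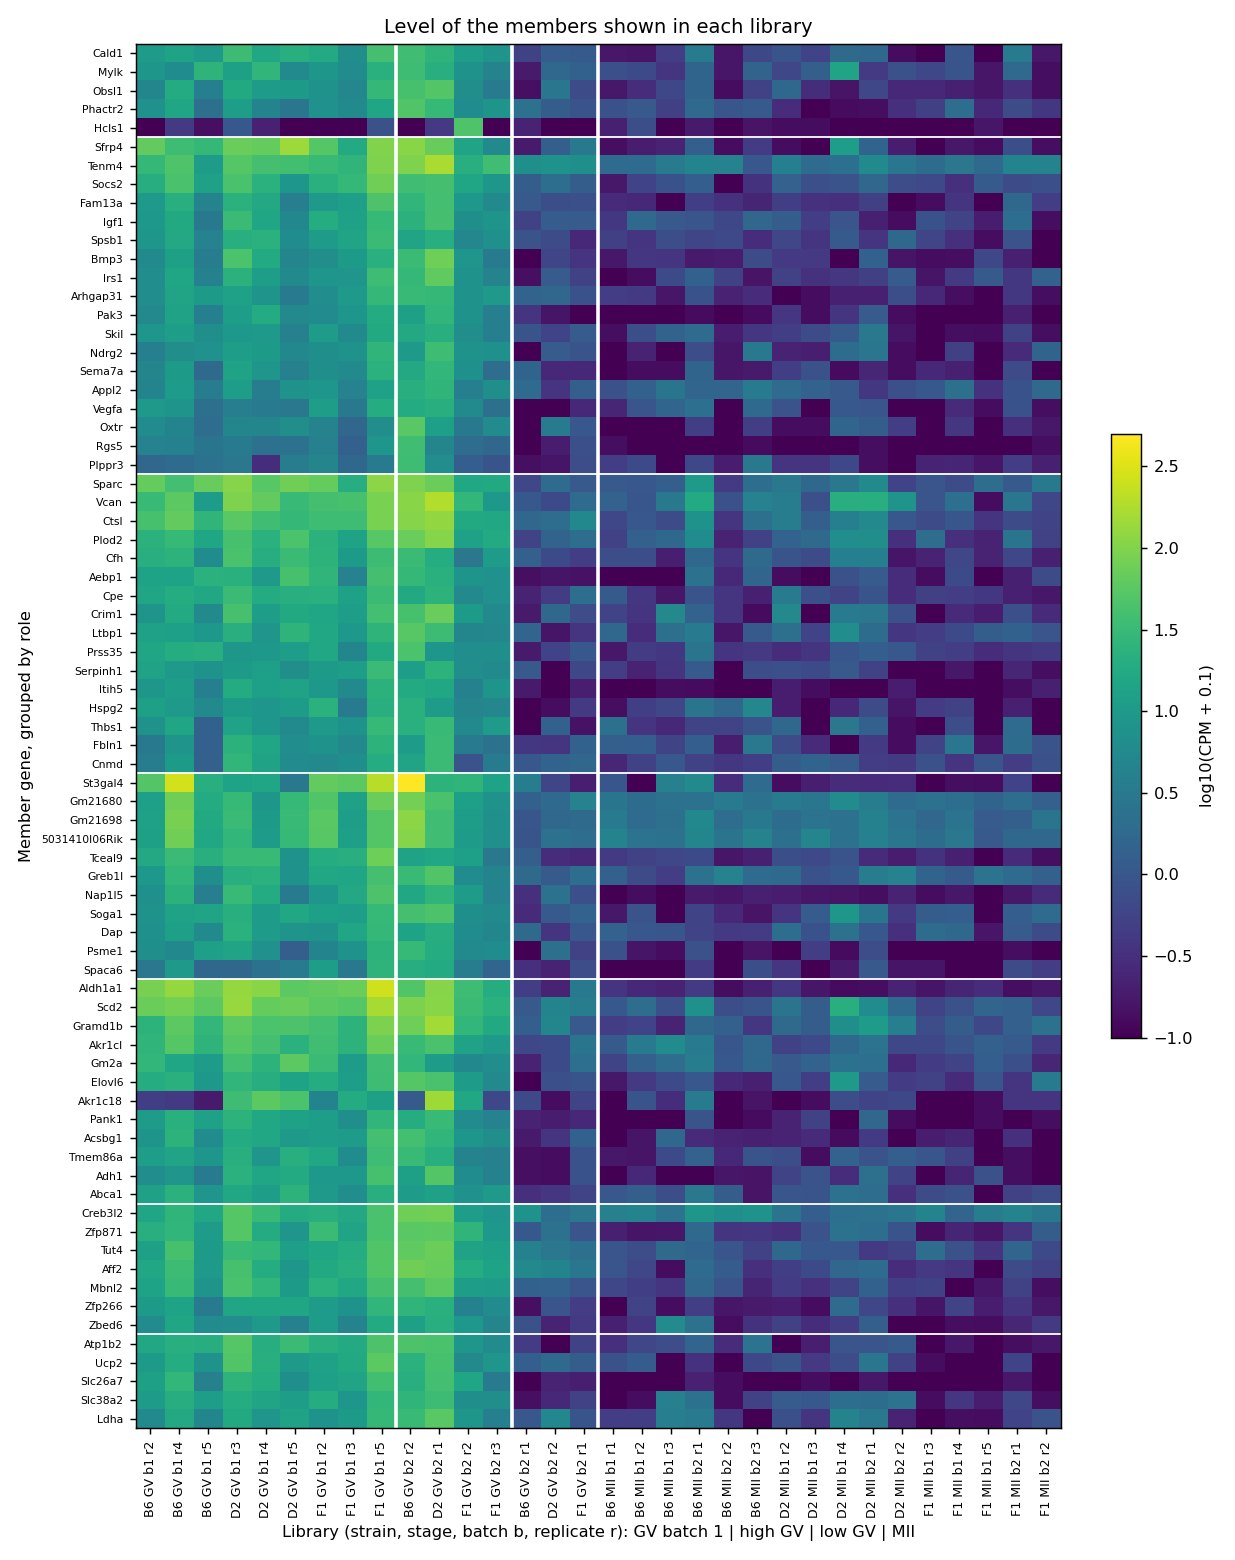
Level of the members shown (rows, grouped by role, shown as log10 of CPM + 0.1) in each of the 32 libraries (columns). GV libraries of batch 1 and the high libraries of batch 2 are bright for most members, the 3 low GV libraries and the 16 MII libraries are dark, and Akr1c18 is at 1.01 CPM or less in the 5 B6 GV libraries.

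Genes of steroid, retinoid and lipid metabolism were the group with the largest share, 12 members with 24.7% of the members' reads in GV batch 1. Aldh1a1, which makes retinoic acid from retinaldehyde, had 88.0, 129 and 70.4 CPM in B6, 130, 109 and 57.9 CPM in D2 and 65.0, 71.8 and 268 CPM in F1, in the replicate order given above. It was highest in F1 replicate 5, with the strains overlapping, and in MII batch 1 it was at 0.149 ± 0.0876 CPM (SD, n = 9). Per kilobase of transcript it was again the highest member, at 53.5 RPKM (CPM per kilobase), followed by St3gal4 at 37.4 and Sfrp4 at 36.3 (a length was known for 75 of 77). Adh1, an alcohol dehydrogenase that can act on retinol, ranged from 3.25 to 42.0 CPM. The stearoyl-CoA desaturase gene Scd2 averaged 84.5 ± 38.3 CPM (SD, n = 9, range 52.4 to 164). Gramd1b, which moves cholesterol from the cell surface inwards, averaged 46.1 ± 21.5 CPM, and Akr1cl, an aldo-keto reductase relative, 39.0 ± 17.1 CPM. Abca1, the cholesterol exporter, ran from 6.38 to 24.4 CPM.

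Matrix, secreted and protease genes followed with 16 members and 22.0% of the members' reads. Sparc, a collagen-binding matrix protein, had 65.3, 38.6 and 69.3 CPM in B6, 105, 54.3 and 77.8 CPM in D2 and 66.3, 19.9 and 112 CPM in F1. The strains overlapped, and F1 replicate 3 was the lowest. Vcan encodes versican, the proteoglycan of the expanding cumulus matrix, and averaged 51.4 ± 28.0 CPM (SD, n = 9, range 10.9 to 94.7). Ctsl, the lysosomal protease cathepsin L, averaged 45.8 ± 20.3 CPM with all 9 libraries at 26.4 CPM or more. Collagen handling was represented by Plod2, a lysyl hydroxylase (13.7 to 54.7 CPM), and Serpinh1, the collagen chaperone (6.53 to 33.3 CPM), and the basement membrane by the perlecan gene Hspg2 (3.15 to 23.1 CPM).

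Ligands, receptors and signalling genes made up 20 members and 17.5% of the reads. Sfrp4, a secreted binder of Wnt ligands, had 63.4, 35.4 and 28.7 CPM in B6, 71.5, 65.7 and 143 CPM in D2 and 53.2, 17.8 and 97.8 CPM in F1, highest in D2 replicate 5. Tenm4, a teneurin of the cell surface, ran from 10.7 to 96.8 CPM, and Socs2, an inhibitor of cytokine and growth hormone signalling, from 8.60 to 77.9 CPM. The growth factor gene Igf1 ran from 2.99 to 32.9 CPM, where its antisense neighbour Igf1os overlaps it. Bmp3, a bone morphogenetic protein that opposes others of its family, ran from 3.55 to 44.0 CPM, highest in D2 replicate 3.

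The remaining groups were smaller. Transcription and RNA genes (8 members, 10.2% of the reads) included Creb3l2, a membrane-bound leucine zipper factor, at 15.4 to 52.8 CPM. Transport and energy genes (5 members, 5.63%) included Atp1b2, a sodium pump subunit, at 16.1 to 53.1 CPM. Cytoskeletal genes (5 members, 3.06%) included Phactr2, a regulator of actin and phosphatase, at 2.22 to 14.7 CPM. Another 11 members had 16.8% of the reads, among them the sialyltransferase gene St3gal4 and the neighbouring copies Gm21680, Gm21698 and 5031410I06Rik on chromosome 5, named after their values were seen, which can share reads and are uncertain as separate genes. These copies had 77.1, 85.4 and 79.4 CPM in B6 replicate 4, and all 3 were between 12.1 and 18.5 CPM in B6 replicates 2 and 5. The annotated spans of Zbed6, Aebp1, Crim1, Nap1l5, Igf1 and Plppr3 are among those that overlap other expressed genes, and whether strand was used in counting is not stated by the sources at hand.

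The leading member changed from animal to animal. It was Aldh1a1 in B6 replicates 2 and 5, D2 replicate 4 and F1 replicates 3 and 5 of GV batch 1, St3gal4 in B6 replicate 4 with 12.9% of the members' reads, Sparc in F1 replicate 2, Scd2 in D2 replicate 3 and Sfrp4 in D2 replicate 5 with 10.2%. Among the high libraries of batch 2 the leaders were Vcan in D2 replicate 1, St3gal4 in B6 replicate 2 at 496 CPM, Hcls1 in F1 replicate 2 and Tenm4 in F1 replicate 3. In GV batch 1, 50 members were highest in F1 replicate 5 and 12 in D2 replicate 3.

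Strains were then compared in the 9 GV libraries of batch 1, where 76 members passed the filter on low counts and Hcls1 did not. In each of the 3 contrasts 1 member, Akr1c18, was called, against 12.8% of all genes between D2 and B6 (6.35% higher and 6.42% lower in D2), 0.955% between F1 and B6 (0.818% higher and 0.137% lower in F1) and 2.28% between F1 and D2 (1.81% higher and 0.472% lower in F1). The SE of the members' log2 changes had a median of 0.53 between D2 and B6. Few calls therefore do not show that members differ less between strains than other genes. Akr1c18 encodes 20-alpha-hydroxysteroid dehydrogenase, the enzyme that inactivates progesterone, and lies on chromosome 13 (GRCm38, minus strand, 4132615 to 4150646). Its level was 0.384, 0.320 and 0.0854 CPM in B6, 35.2, 58.6 and 44.6 CPM in D2 and 4.60, 19.0 and 12.6 CPM in F1. The 3 strains did not overlap, with every F1 library between the parents. Akr1c18 was higher in D2 than in B6 by 7.46 ± 0.61 on the log2 scale (SE) and adjusted p was 4.46e-06 by edgeR (quasi-likelihood, Benjamini-Hochberg over all 18216 genes tested). In F1 it was higher than in B6 by 5.48 ± 0.59 at adjusted p = 0.000265 and differed from D2 by −1.99 ± 0.44 at adjusted p = 0.034 in the same edgeR test. The last call was lost on leaving out any of B6 replicates 2 or 4, F1 replicates 2 or 5 or D2 replicates 4 or 5 (adjusted p 0.0531 to 0.123).

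In batch 2, which the rule used, Akr1c18 was at 149 CPM in D2 replicate 1 and at 1.01 CPM in B6 replicate 2, although these libraries had almost the same summed level of members. It was at 16.4 and 0.539 CPM in F1 replicates 2 and 3, and at 0.559, 0.0322 and 0.481 CPM in the low B6, D2 and F1 libraries. Akr1c18 thus met the level threshold mostly through a D2 animal. In MII the highest level was 3.25 CPM, in B6 batch 2 replicate 1. Of its relatives, Akr1c14, which narrowly missed the rule, was at 20.7 ± 15.1 CPM in B6, 27.2 ± 18.2 in D2 and 29.6 ± 20.0 in F1 (SD, n = 3 each), and Akr1cl at 34.6 ± 14.9, 37.9 ± 14.9 and 44.4 ± 25.5 CPM. Adjusted p for D2 against B6 was 0.737 for Akr1c14 and 0.809 for Akr1cl in edgeR's test. The difference between Akr1c18 and these genes was itself not tested.

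**Figure D4:**
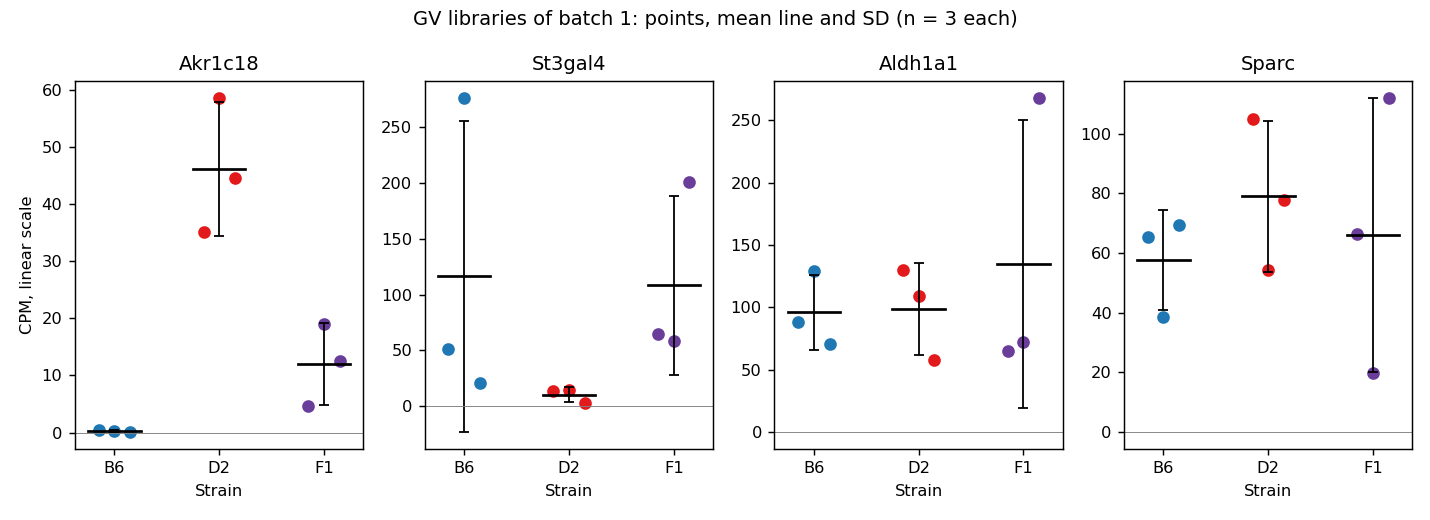
CPM (linear axes, each from near 0) of Akr1c18, St3gal4, Aldh1a1 and Sparc in the GV libraries of batch 1 by strain, 1 point per library with the mean and SD (n = 3 each). Akr1c18 separates the 3 strains without overlap, St3gal4 is lowest in D2, and Aldh1a1 and Sparc overlap.

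Without adjustment, 13 of the 76 members had p under 0.05 between D2 and B6, 6 between F1 and B6 and 4 between F1 and D2. The share of all genes at that level is not given, so nothing about the members is read from these counts. The nearest miss was Adh1 between D2 and B6, at adjusted p = 0.0532 in edgeR's test. St3gal4, which adds sialic acid to galactose, was at 51.4, 276 and 21.2 CPM in B6, 13.8, 14.8 and 2.90 CPM in D2 and 64.7, 58.9 and 201 CPM in F1. Every D2 library lay below every B6 and F1 library, but the spread within B6 and F1 was wide, and the difference of −3.38 ± 1.15 between D2 and B6 did not pass (adjusted p = 0.115, edgeR). The call count between D2 and B6 was 3 without B6 replicate 4, F1 replicate 3 or F1 replicate 5, and 2 without F1 replicate 2 or D2 replicate 5. Shares of all genes in those fits are not given, and nothing is read from the counts.

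The log2 change of the tested members had a median of 0.48 between D2 and B6, with 61 members positive, against 0.03 over all genes. It was 0.57 between F1 and B6 with 71 positive, and 0.16 between F1 and D2 with 47 positive. Members were measured in the same pools and are not replicates of a strain. F1 replicate 5 alone was the highest library for 50 of the 77. The share of all genes with a positive change is not given, so nothing is read from the counts of positive members. The summed level of the 15 granulosa genes moved in the same order, at 865 ± 321 CPM in B6, 1314 ± 514 in D2 and 1361 ± 962 in F1 (SD, n = 3 each), and its part in the members' changes was not tested. The contrasts share libraries.

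Gene lists of the follicle gave the frame around the members. Counts of called genes stand beside the shares of all genes given above (6.35% higher and 6.42% lower in D2 than in B6). Of 30 genes of steroid and lipoprotein metabolism 3 were members, and 3 of 28 tested rose and 1 fell in D2 against B6. Of 36 genes of the luteinizing hormone response and cumulus expansion 1, Vcan, was a member, with 6 of 24 higher and 1 lower in D2. The list of transforming growth factor, insulin-like growth factor and hormone genes held 5 members among 42, with 3 of 41 higher and 1 lower in D2, and the matrix and protease list 6 among 40, with 2 of 39 higher. In the list of cytoskeleton and adhesion genes, which held no member, 8 of 46 were higher and 2 lower in D2. Of the transcription factors tested 3 of 37 were higher, and of the antioxidant and stress genes 1 of 24 was higher and 1 lower. Each of the 7 lists of other cell types had at most 1 gene higher and 2 lower. The 15 granulosa genes set aside had median log2 changes of 0.47 between D2 and B6, 0.57 between F1 and B6 and 0.05 between F1 and D2. In F1 against B6 (0.818% of all genes higher and 0.137% lower), 1 gene rose in each of the steroid, growth factor, matrix and endothelial lists and 2 in the transcription factor list. In F1 against D2 (1.81% higher and 0.472% lower), 1 gene fell in each of the steroid, expansion, growth factor and transcription factor lists, and 1 rose in each of the growth factor and antioxidant lists. No other gene of these lists was called in either contrast. These counts are a description.

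Strains were also compared in MII, where 62 members passed the filter on low counts and no member was above 21.0 CPM in any library. The rule took the mean over all 16 MII libraries without regard to strain. It capped how high a member could be there but did not use strain labels. Genes with higher MII levels were thus left out, and a member could pass the filter through libraries of 1 strain. The MII calls are therefore read as a description. Fits held batch as a term. Between D2 and B6, 8 were called, 5 higher and 3 lower in D2, against 31.1% of all genes (15.6% higher and 15.5% lower). Gramd1b was at 0.135 to 1.61 CPM in the 6 B6 libraries and at 1.13 to 11.1 CPM in the 5 D2 libraries, with overlap, and was higher in D2 by 3.14 ± 0.56 on the log2 scale (adjusted p = 0.000136, edgeR). It also passed in each batch alone and with each library left out in turn. Creb3l2 was at 2.49 to 8.93 CPM in B6 and at most 2.68 CPM in D2, and fell by 1.23 ± 0.35 (adjusted p = 0.00856, edgeR), though not in batch 1 alone (adjusted p = 0.277). Phactr2 was at 0.404 to 1.73 CPM in B6 and 0.00 to 0.223 CPM in D2 with no overlap, and differed by −3.16 ± 0.88 (adjusted p = 0.0083, edgeR). Its D2 libraries held only 6, 0, 1, 1 and 7 reads, near the floor of counting. St3gal4 was at 0.00 to 5.77 CPM in B6 and 0.0317 to 0.198 CPM in D2, and was lower in D2 by the same test, at −3.73 ± 1.14 (adjusted p = 0.0149, edgeR). In GV it had pointed the same way without a call.

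Adh1, Soga1, Zfp871 and Elovl6 were the others higher in D2 MII libraries, at 4.09, 3.39, 2.69 and 2.88 on the log2 scale. D2 batch 1 replicate 4 was the highest library for Soga1 (8.95 CPM), Zfp871 (2.35 CPM) and Elovl6 (9.74 CPM). Without it 5 members were called, and adjusted p was 0.175 for Soga1 and 0.103 for Zfp871. Without D2 batch 2 replicate 1, adjusted p of Adh1 was 0.0643. Zfp871 also missed without B6 batch 1 replicate 2, at adjusted p = 0.0566. The counts were 5 in batch 1 alone and 2 in batch 2 alone. For these and the other MII counts with libraries or a batch left out, the share of all genes is not given. Nothing about the members is read from them.

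Between F1 and B6, 2 members were called in MII, against 9.83% of all genes (5.91% higher and 3.92% lower in F1). St3gal4 was lower in F1, with a log2 difference of −4.51 ± 1.20, and so was Atp1b2 at −4.30 ± 1.10 (adjusted p = 0.0185 and 0.0139, edgeR). In the F1 MII libraries St3gal4 had 0, 1, 1, 12 and 0 reads, and Atp1b2 had 0, 2, 0, 1 and 2. These differences therefore rest on F1 levels near the floor of counting, and they are a description. Only 1 call was left without B6 batch 2 replicates 1 or 3, or without B6 batch 1 replicates 1 or 3, and 4 were made without F1 batch 2 replicate 1. In batch 1 alone the count was 1 and in batch 2 alone 0, where 8 members had an unadjusted p under 0.05.

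Between F1 and D2, 7 members were called in MII, against 10.3% of all genes (6.14% higher and 4.18% lower in F1). Phactr2 was higher in F1, at 2.87 ± 0.90, and 6 were lower, among them Gramd1b (−2.08 ± 0.57), Scd2 (−2.86 ± 0.80), Atp1b2 (−3.81 ± 1.10), Ctsl (−2.39 ± 0.74) and Vcan (−3.16 ± 0.96). For Phactr2 the D2 libraries, and for Atp1b2 the F1 libraries, were near the floor of counting as given above. Vcan was at 0.0331 to 2.68 CPM in the 5 F1 libraries and at 3.55, 0.685 and 21.0 CPM in D2 batch 1 (replicates 2, 3 and 4) and 20.4 and 7.97 CPM in batch 2 (replicates 1 and 2). Without D2 batch 1 replicate 4, the MII library with the highest summed level of members, no member was called by edgeR, and 18 members had an unadjusted p under 0.05. The count was 2 without D2 batch 2 replicate 1 or F1 batch 1 replicate 3, 4 without F1 batch 2 replicate 2 or F1 batch 1 replicate 5, and 11 without D2 batch 2 replicate 2. It was 2 in batch 1 alone and 0 in batch 2 alone, where 6 members had an unadjusted p under 0.05.

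The granulosa genes set aside summed to 43.4 CPM in D2 batch 1 replicate 4, 48.7 CPM in D2 batch 2 replicate 1 and 49.8 CPM in B6 batch 2 replicate 1, and to 15.6 to 28.7 CPM in the other MII libraries. Over the tested members the median log2 change in MII was 0.61 between D2 and B6, −0.61 between F1 and B6 and −1.43 between F1 and D2, against −0.02, −0.02 and −0.01 over all genes. The part of carried follicle RNA in the MII differences was not tested.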

How the data were processed

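The table holds read counts per gene for 32 libraries. The counts were made by the authors with HISAT2, SAMtools and featureCounts of Subread 1.5.1 on GRCm38.p4, per the submitters' processing notes, and were deposited without normalization. DESeq2 1.16.1 is also in those notes. How strand and multi-mapped reads were treated is not stated there. Of 37444 entries, 3 named no gene and held at most 0.019% of a library, and 37441 were kept. RefSeq symbols matched 36371 of them.

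CPM used column totals. Strain tests used edgeR 4.0.16 (robust quasi-likelihood, TMM, filterByExpr on strains, R 4.3.3) on all genes, two-sided, with Benjamini-Hochberg adjustment at 0.05. GV tests used the 9 libraries of batch 1, and MII tests used 16 libraries with batch as a term. Alternatives were median-of-ratios scaling, other filters, DESeq2 1.42.0, the compared strains alone, all 16 GV libraries, each batch alone, a replicate block, other thresholds of the rule, and leaving out each library. Ratios of pooled counts had a floor of 3 counts, and such floors cover counting error only.

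The members, lists and tests were chosen with earlier results of these data known. Named genes were the members with the highest level, the leading members of each list, those whose batch 1 level departed most from the rule's, the called members and the genes next to each threshold. Roles and other names were added after values were seen. Fits were tested on simulated data. In the GV batch 1 design, 15 of 50 genes raised 2-fold in D2 were called against B6, and 35 of 50 raised 4-fold. Some members are not reported here by name.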

Additional observations from a re-analysis of the deposited data

Results flagged for a closer look

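Among 78 sets of 4 to 10 libraries, 19 held a library far from the others by Dixon's criterion. Its nominal rate of 1 in 20 holds for normal values. The sets here were CPM without a log and shared libraries. The GV sets also mixed both batches and the rule's high and low libraries. The number of flags is therefore not read against that rate. The flags fell on few animals. B6 MII batch 2 replicate 1 stood above the other 5 B6 MII libraries for the summed members at 165 CPM (others up to 78.6), the granulosa genes set aside at 49.8 (up to 24.3), Vcan at 18.2, Sparc at 9.54, Ctsl at 7.79, Scd2 at 6.97, Akr1c18 at 3.25 and Sfrp4 at 1.23 CPM.

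F1 GV batch 1 replicate 5 stood above the other 5 F1 GV libraries for the granulosa genes set aside at 2469 CPM (others up to 866), Aldh1a1 at 268, St3gal4 at 201, Scd2 at 164, Tenm4 at 96.8 and Ctsl at 89.6 CPM. D2 GV batch 2 replicate 1 stood apart for Tenm4 at 166 CPM. In MII, D2 batch 1 replicate 4 stood apart for Scd2 at 20.3 CPM and Sfrp4 at 11.8 CPM, and F1 batch 2 replicate 1 for Sfrp4 at 0.671 CPM and St3gal4 at 0.447 CPM.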

How the results depend on the processing

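The number of members, 77, was 36 with a mean of 20 CPM, 41 with a ratio of 1/20, and 51 to 108 without 1 library. The count of 65 members above MII was 65 to 70 without 1 library. In GV batch 1 the calls between D2 and B6 were 4 with DESeq2, 2 with a replicate block and 3 with the compared strains alone, and 1 to 3 without 1 library. Between F1 and B6 they were 2 with DESeq2, 0 with all 16 GV libraries (1 member at an unadjusted p under 0.05 in edgeR) and 1 with each library left out in turn. Between F1 and D2 they were 3 with DESeq2, 0 with no filter, a replicate block, the compared strains alone or all 16 GV libraries (5, 5, 4 and 1 members at an unadjusted p under 0.05 in edgeR), and 0 to 1 without 1 library. The fits with all 16 GV libraries include libraries that chose the members and are a description. Akr1c18 between D2 and B6 passed in all 16 alternatives (adjusted p 1.23e-42 to 0.00809), between F1 and B6 in 15 of 16 (5.99e-22 to 0.139) and between F1 and D2 in 6 of 16 (0.000163 to 0.308), with no change of direction.

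In MII the calls between D2 and B6 were 17 with no filter, 3 with 1 CPM in 5 libraries, 4 with a replicate block, 5 in batch 1, 2 in batch 2 and 5 to 11 without 1 library. Between F1 and B6 they were 10, 0 (4 members at an unadjusted p under 0.05 in edgeR), 1, 1 and 0 in that order, with 4 in DESeq2 and 1 to 4 without 1 library. Between F1 and D2 they were 18, 4, 4, 2 and 0, with 13 in DESeq2 and 0 to 11 without 1 library. Libraries of different strains with the same batch and replicate number correlated at −0.077 to 0.112 in their departures from the strain mean. Unlike numbers were not compared, so this does not settle whether the numbers pair samples. The main fits treated libraries as unpaired. Depth limits the MII values, where most members had few reads. Counts of members called, or at unadjusted p under 0.05, in these alternatives stand without the share of all genes in the same setting. This holds here and above, and nothing about the members is read from those counts.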
